A study of Mus musculus with 37 samples.

Results

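The open reading frames (ORFs) described here are those of 9 MAP3 kinase genes, Map3k1, Map3k2, Map3k3, Map3k4, Map3k5, Map3k7, Map3k8, Map3k11 and Map3k14, on a list of ORFs that ribosome footprints of mouse dendritic cells marked as translated. All ORFs whose family name was one of these symbols were kept, which gave 19 of 22367 ORFs, or 9 of 10327 families (a family is all ORFs of a gene name on 1 chromosome and strand). The genes were picked by name from those with an ORF on the list, so that each has an ORF is no finding. The list names 12 families Map3k and a number, of which 3 (Map3k6, Map3k12 and Map3k15) are not among the 9.

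Ribosome footprints are the short RNA fragments that a ribosome shields from nuclease. The cells were bone marrow-derived dendritic cells of C57BL/6J mice of 6 to 8 weeks, grown from marrow in culture, and the labels name no transgene or deletion in any group. Lipopolysaccharide (LPS, 100 ng/mL), a bacterial cell wall component sensed by Toll-like receptor 4, was given for 0.5, 1, 2, 4, 6, 8, 9 or 12 h. Cycloheximide (100 ug/mL for 1 min), which stops elongating ribosomes, was used in 16 LPS libraries, in 8 mock libraries at the same times and in 2 naive libraries. A further 8 LPS libraries and 1 naive library had no inhibitor. There was 1 library each of harringtonine (1 ug/mL for 5 min) and lactimidomycin (50 ug/mL for 30 min), drugs that leave ribosomes mainly at starts, from a mix of LPS times that began at 0 h and ended at 9 h for harringtonine and at 12 h for lactimidomycin. The list was made for all 37 libraries together and has no value per library. LPS, mock and inhibitor groups were therefore not compared, the depth is unknown, and no value below has a replicate or a test.

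Each line of the list gives a transcript's exons, the span of an ORF and the authors' score, a whole number from 500 to 991 that is used here only to describe and rank ORFs within the list. Of genes that mark dendritic cells, 10 of 11 had an ORF on the list, and Flt3 did not. So did 5 of 7 macrophage and monocyte markers, 8 of 8 neutrophil markers, 4 of 4 fibroblast markers, 2 of 3 mast cell markers, 1 of 4 B cell markers and 0 of 5 T and NK cell markers. The list does not say from which cells an ORF's footprints came, and the part of other cells in the MAP3 kinase ORFs was not tested.

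MAP3 kinases stand near the top of the MAP kinase cascades. Most phosphorylate and activate MAP2 kinases, which in turn activate the MAP kinases ERK, ERK5, JNK or p38. Some reach the IkB kinases that release NF-kB. In dendritic cells these cascades carry the signal from Toll-like receptor 4 to the genes of inflammatory cytokines. The longest ORF of a family is called its main ORF here. An ORF that starts upstream of the main start and has no codon in common with it is called an upstream ORF. In general, ribosomes that translate an upstream ORF may not go on to the main start, so that such ORFs can lower the output of the main protein. No protein was measured here.

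Main ORFs of the MAP3 kinases were long and had many exons. They ran from 467 codons in Map3k8 to 1545 in Map3k4, with a median of 838 against 438 over all 10327 families (codon counts leave out the stop codon). The median number of coding exons was 16, against 8 over all families, and ran from 7 in Map3k8 to 30 in Map3k5. Scores of the main ORFs ran from 532 to 977 with a median of 894, against a median of 927 and quartiles of 800 and 969 over all main ORFs. A main score of 900 or more was given to 4 of the 9 (44.4%), Map3k1, Map3k2, Map3k3 and Map3k8, against 57.0% of all families. The 9 families also held 5 upstream ORFs, 2 ORFs with another in-frame start and 3 splice variants with the start and stop of the main ORF. The 19 ORFs used 16 start and 12 stop positions. Map3k2, Map3k4, Map3k8 and Map3k14 had 1 ORF each, so 4 of 9 (44.4%) were listed with the main ORF alone, against 43.5% of all families.

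**Figure D1:**
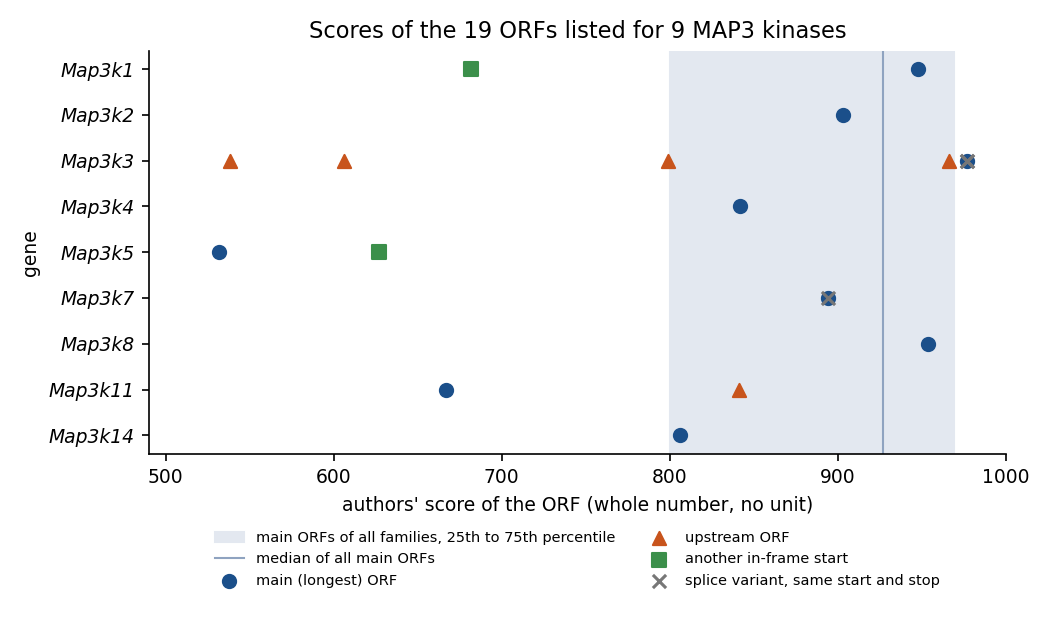
Authors' score (horizontal axis, no unit) of each of the 19 ORFs, by gene (rows). Points are single ORFs, marked by class, the shaded band spans the quartiles of all main ORFs (800 to 969) and the line is their median (927). The main ORFs of Map3k5 (532) and Map3k11 (667) lie left of the band, and the 6-codon upstream ORF of Map3k3 (966) lies close to its main ORF (977).

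No genome sequence of the list's build, mm9, was used, so the letters of the listed upstream ORFs are not shown. RefSeq windows of GRCm38.p6, another build, which hold the first 50 bases after a gene's start site, matched 7 of the 9 genes. They were searched for ATG on the gene's strand only. An ATG was found in 3 of the 7, Map3k1, Map3k4 and Map3k11, against 44.3% of all 32851 windows. The sequences given here are the 30 bases of Map3k4 that hold its ATGs, since the listed leader of 32 bases is shorter than the window's 50, and the last 30 bases of the Map3k1 window, since its listed leader of 488 bases is longer. Capitals mark in Map3k4 an ORF from its ATG to its stop codon, and in Map3k1 the ATG.
Map3k4: ggtcATGCGAAGCTTGGTGCACGGATGAga
Map3k1: gaaaATGgcggcggcggcgggcgatcgcgc
The Map3k4 bases are chr17:12318623-12318652 and those of Map3k1 are chr13:111808944-111808973, both on the minus strand. Whether the start sites of RefSeq and of the listed transcripts are the same base was not checked, since the builds differ.

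Map3k7, Map3k8 and Map3k14 act close to Toll-like and TNF family receptors, and their listed ORFs were main ORFs and 1 splice variant. Map3k7 (TAK1), which is activated with its TAB partners downstream of TRAF6 and phosphorylates the IkB kinases as well as MAP2 kinases, had ORFs of 589 and 562 codons. They share the start at chromosome 4, position 32051289, the stop and a score of 894. The shorter ORF lacks 1 whole exon of 81 bases (32081849 to 32081929), which is 27 codons, and is otherwise the same. Map3k8 (TPL2), which is held by the NF-kB precursor p105 until LPS frees it to activate the ERK cascade, had 1 ORF, which was 467 codons long and scored 954, with a leader of 124 bases (the leader is the part of the transcript before the ORF, and the trailer the part after it). Map3k14 (NIK), the kinase of the noncanonical NF-kB pathway, whose protein is kept low by TRAF3 and the cIAP ligases, had 1 ORF, which was 942 codons long and scored 806, with a leader of 83 bases. Of these 3 kinases, the score of Map3k8 was higher than that of 64.1% of all main ORFs, that of Map3k7 higher than 41.5% and that of Map3k14 higher than 25.9%.

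Map3k5 and Map3k11 had the lowest main scores of the 9, and are described side by side for this reason. Map3k5 (ASK1), which is bound by thioredoxin and activates the JNK and p38 cascades under oxidative stress, had a main ORF of 1368 codons that scored 532, and 1.95% of all main ORFs scored lower. It is also the member nearest to the list's lowest score of 500. A further start in the same frame and in the same exon lay 129 codons inside, at chromosome 10, position 19654835, and gave an ORF of 1239 codons with a score of 627. The inner start thus scored higher than the outer one. That was so for 1449 of 3385 such starts on the whole list (42.8%). It is deeper than most, as 85.7% of those inner starts that are codons of their main ORF lay less deep, and their median was 23 codons.

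Map3k11 (MLK3), which binds the GTPases Rac and Cdc42 and activates the JNK cascade, had a main ORF of 838 codons with a score of 667, higher than 12.3% of all main ORFs. Its leader of 766 bases was the longest of the 9. An upstream ORF of 34 codons lay at chromosome 19, 5689931 to 5690035, in exon 3 of 12, the exon that also holds the main start. It stopped 247 bases before that start, in another frame, and took up 13.7% of the leader. Its score of 841 was higher than that of the main ORF and than 65.8% of all upstream ORFs that stop short of the main start. The RefSeq window of Map3k11 has an ATG after 1 base that opens 2 codons before a stop codon, and no such ORF is listed. With the highest-scoring ORF of each family taken as main ORF, this ORF becomes the main ORF and Map3k11 has no upstream ORF.

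Of the MEKK group, and of all 9 genes, Map3k3 had the most ORFs. Map3k3 (MEKK3), which activates the ERK5 and p38 cascades and takes part in NF-kB activation, had 7 ORFs, and 1.90% of all families had 7 or more. Of these, 4 were upstream ORFs, and all lay in the 542-base leader, on exon 1, which also holds the main start at chromosome 11, position 105946244. The 34-codon ORF (105945932 to 105946036, score 538) and the 6-codon ORF (105946016 to 105946036, score 966) share a stop codon. The 48-codon ORF (105946052 to 105946198, score 799) and the 7-codon ORF (105946175 to 105946198, score 606) share another. The leader therefore holds 4 starts but 2 stops, with 15 bases between the end of the first pair and the start of the second, and these ORFs cover 46.5% of it.

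In the first pair the shorter ORF had the higher score and in the second pair the longer one. Over the whole list, the shorter ORF scored higher in 154 of 283 pairs of upstream ORFs with a common stop (54.4%). The score of the 6-codon ORF was higher than that of 92.7% of all 2924 upstream ORFs that stop short of the main start, and that of the 34-codon ORF higher than 7.66%. The first pair stopped 207 bases before the main start and the second pair 45, against a median of 115 over the list. Both distances are multiples of 3, so all 4 ORFs lie in the frame of the main ORF, separated from it by their stop codons. On the list, 35.3% of upstream ORFs were in that frame, among those on a transcript with the main start. Of 105 families with 4 or more such ORFs, all of them were in frame in 3. This pattern was looked at after the values of Map3k3 were seen, and ORFs with a common stop share their frame by definition.

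**Figure D2:**
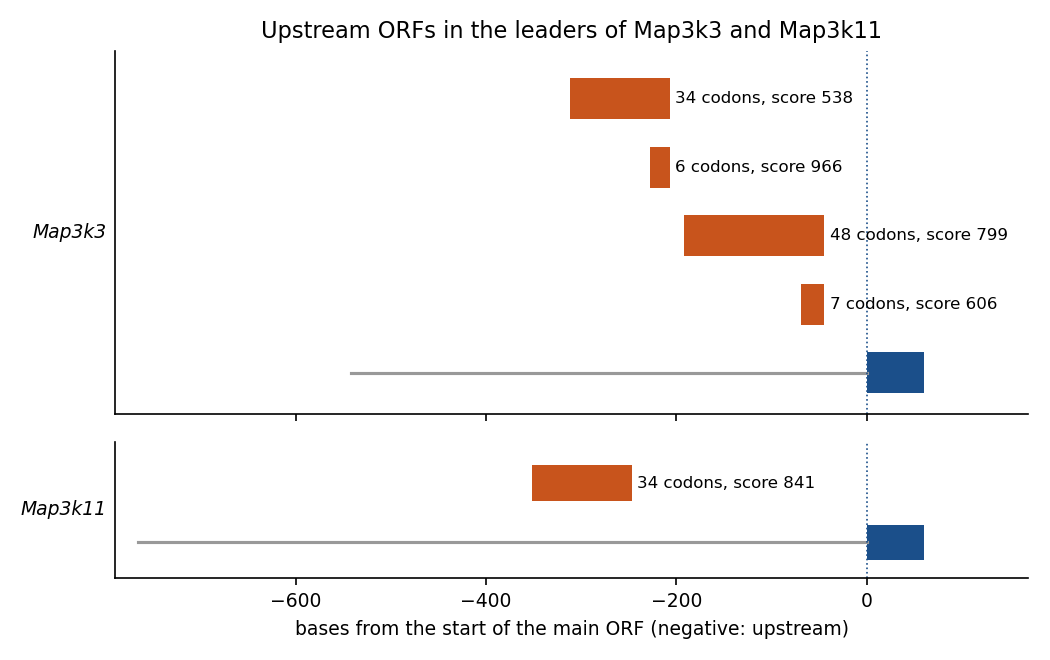
Upstream ORFs (orange bars) in the leaders (grey lines) of Map3k3 and Map3k11, by distance in bases from the start of the main ORF, of which the first 60 bases are drawn in blue. In Map3k3 the 34-codon and 6-codon ORFs end at the same base, as do the 48-codon and 7-codon ORFs, while the 34-codon ORF of Map3k11 ends 247 bases before its main start.

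The main ORF of Map3k3 had 626 codons and a score of 977, higher than 80.6% of all main ORFs and the highest of the 9. Its 2 splice variants of 567 and 524 codons have the same start, stop and score. The 567-codon ORF lacks 59 codons, made up of an exon of 132 bases (106012323 to 106012454) and 45 bases of another exon. The 524-codon ORF lacks 102 codons, made up of an exon of 192 bases (106010796 to 106010987) and of 66 and 48 bases of 2 other exons. Their transcripts are listed with shorter leaders of 292 and 240 bases. Both leaders hold the starts of the 6-codon, 48-codon and 7-codon upstream ORFs, while the start of the 34-codon ORF is on the transcript of the 626-codon ORF and not on the other two. Equal scores of ORFs with a common start are usual on this list: all scores were equal in 2053 of 2749 groups of such ORFs (74.7%).

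Map3k1 (MEKK1), a kinase of the JNK and ERK cascades that also carries a ubiquitin ligase domain, had a main ORF of 1335 codons with a score of 948. It started in exon 2 of the listed transcript at chromosome 13, position 112566219, after a leader of 488 bases. The RefSeq window of Map3k1 holds an ATG after 24 bases, printed above, with no stop codon in its frame up to the window's end. It also holds an ATG after 5 bases, outside the printed stretch, that a stop codon follows directly. The listed ORFs of Map3k1 start 488 bases or more into their transcripts, and no upstream ORF is listed for it. Whether the frame of the later ATG runs on into the listed ORF cannot be read from these windows. Map3k1 also had an ORF of 53 codons with a score of 682 that ends at the main stop and starts 1282 codons inside, deeper than 99.2% of such starts. The transcript it is listed on keeps an intron of 250 bases (112546571 to 112546820) that the main transcript lacks. This length is not a multiple of 3, and the 53-codon ORF starts after it.

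Map3k4 (MEKK4), which GADD45 proteins activate to drive p38 and JNK, had 1 ORF, the longest main ORF of the 9 with 1545 codons, and a score of 842. Its leader of 32 bases was the shortest of the 9. In the RefSeq window the later of 2 ATGs also follows 32 bases. The earlier follows 12 bases and opens 7 codons before a stop codon, shown in capitals, whose ATGA end overlaps the later ATG. No upstream ORF of Map3k4 is listed. Elsewhere the list holds ORFs of this kind, as 77 of the 687 that run over a main start share 4 bases with the main ORF, and ORFs down to 1 codon are listed. Map3k2 (MEKK2), the nearest relative of Map3k3 and like it a kinase of the ERK5 cascade, had 1 ORF of 619 codons with a score of 903. Its leader of 528 bases was about as long as that of Map3k3 with 542, but no upstream ORF is listed for it. Its trailer of 8403 bases was the longest of the 9 and longer than 98.9% of all trailers.

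**Figure D3:**
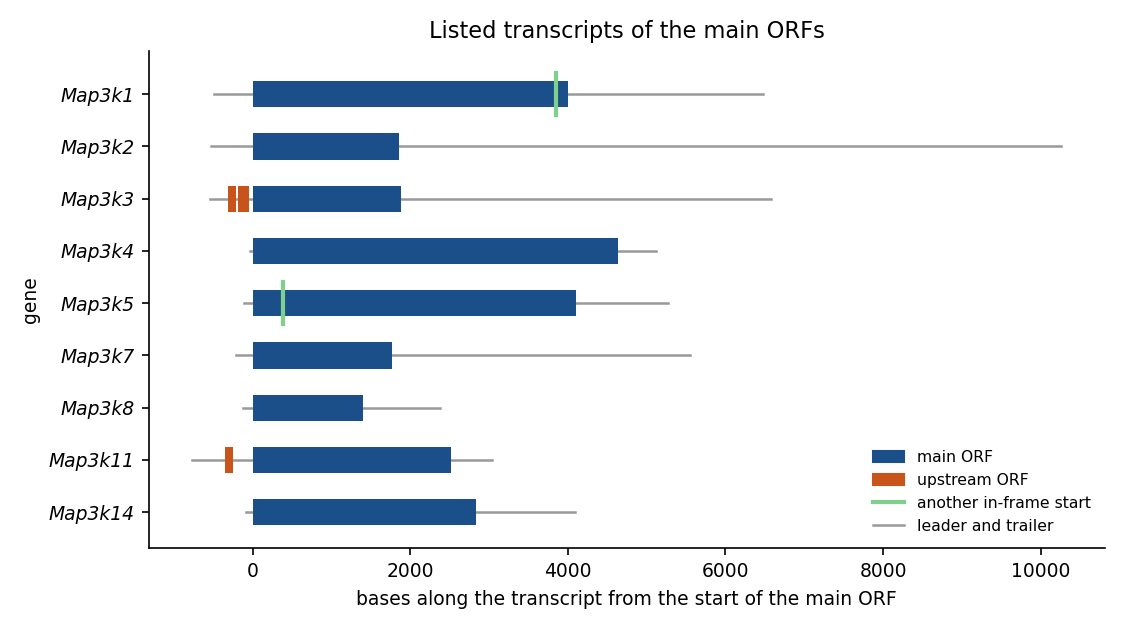
Listed transcript of each main ORF, in bases from the main start, with the main ORF in blue, leader and trailer as grey lines, upstream ORFs in orange and further in-frame starts in green. Leaders run from 32 bases (Map3k4) to 766 (Map3k11), and the trailer of Map3k2 reaches 8403 bases.

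Upstream ORFs were listed for 2 of the 9 MAP3 kinases, Map3k3 and Map3k11 (22.2%), against 20.2% of all families (16.4% counting ORFs that end before the main start). Further in-frame starts were listed for 2, Map3k1 and Map3k5 (22.2%), against 23.0%. Splice variants of unchanged start and stop were listed for 2, Map3k3 and Map3k7 (22.2%), against 17.9%. These shares lie near those of all families and are no result about the MAP3 kinases.

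The 2 genes with upstream ORFs have the longest leaders of the 9. Over all families, upstream ORFs were listed for 2.71% of those with a leader under 50 bases, 13.4% of those with 100 to under 200 bases, 39.1% of those with 400 to under 600 and 45.4% of those with 600 or more. Of the 3 members with 400 to under 600 bases, Map3k3 had upstream ORFs and Map3k1 and Map3k2 had none. The 5 members with shorter leaders, Map3k4, Map3k14, Map3k8, Map3k5 and Map3k7, had none. The part of leader length in which members have upstream ORFs was not tested.

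**Figure D4:**
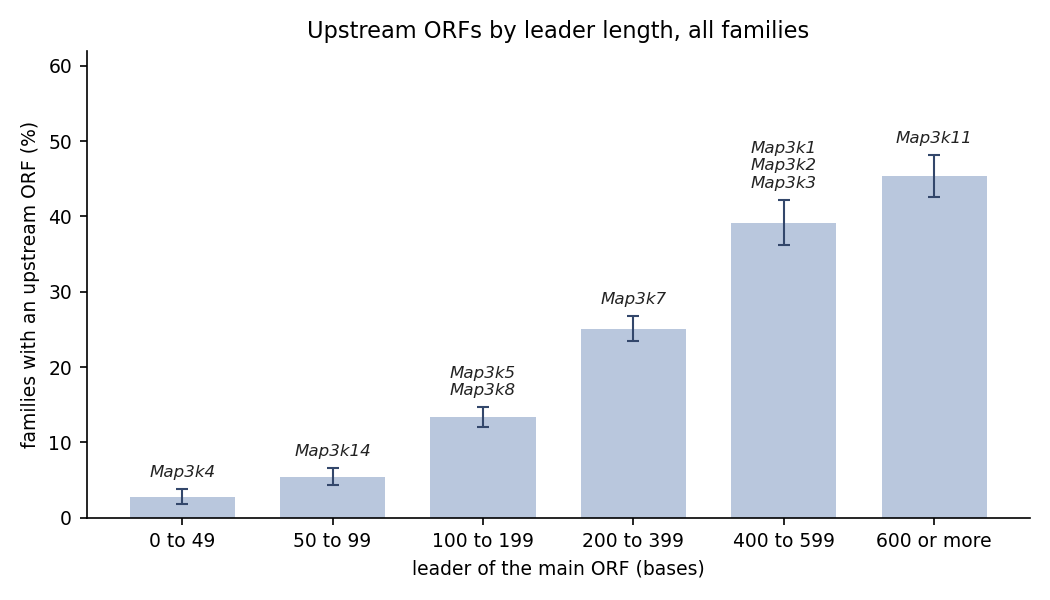
Share of all families with an upstream ORF (bars, in percent) by the leader length of the main ORF in bases, with exact 95% Clopper-Pearson intervals that cover counting error alone, and the MAP3 kinases of each class named above it. The share rises from 2.71% to 45.4%, and Map3k3 and Map3k11, the members with upstream ORFs, are in the last 2 classes.

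Other genes of these cascades were counted from fixed lists, to be read beside the 20.2% of all families with an upstream ORF. Among other kinases of the MAP3 level, with a gene of that list left out that is not reported here, 8 of 16 names were listed and 4 of these had upstream ORFs (50.0%). Taok1 and Taok3, both TAO kinases, had 5 ORFs between 5 and 113 codons long and 4 between 8 and 20. Araf, a kinase of the ERK cascade, had 1, which was 9 codons long and scored 957, and Taok2, another TAO kinase, had 1, which was also 9 codons long and scored 670. Main scores were near the list's lowest of 500 for Taok2 (513, 283 codons) and Taok3 (532), and 986 for both Taok1 and Araf. Map3k9, Map3k10, Map3k13, Map3k19, Map3k20 (also under its older name Zak), Map3k21 and Mos had no ORF on the list under these names. Of MAP2 and MAP kinases, 14 of 20 were listed and 3 had upstream ORFs (21.4%): Mapk6, an atypical MAP kinase, with 3, Map2k3, an activator of p38, with 2, and Map2k2, an activator of ERK, with 1. Of 8 names of MAP4 kinases, which act above the MAP3 kinases, 6 were listed, Mink1 among them, and the names Map4k6 and Tnik were not. Of the 6, 1 had an upstream ORF, Map4k4 (16.7%).

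Of partners and regulators of the 9 kinases, 19 of 19 were listed and 3 had upstream ORFs (15.8%). Ikbkg, the scaffold of the IkB kinases, had 3, between 17 and 32 codons long. Birc3, the cIAP2 ligase that acts on Map3k14, had 1 that was 20 codons long and scored 987, and Tab2, the adaptor of Map3k7, had 1 that was 48 codons long and scored 808. Listed leaders of the main ORFs were long in these 3 genes, with 693 bases in Ikbkg, 4800 in Birc3 and 2225 in Tab2. Long leaders also occur among the genes with none, such as Birc2 with 1135 bases. Tab1, Tab3, Nfkb1, Tnip2, Traf2, Traf3, Birc2 and the 3 Gadd45 genes had none. Of Akt and PI3K genes, a neighbouring pathway, 11 of 12 were listed and 6 had upstream ORFs (54.5%), led by Akt2 with 8, Pik3cg with 3 and Pik3r1 and Pik3cd with 2 each. The 8 of Akt2 had 5 stops, in a listed leader of 12513 bases. The longest of them had 413 codons, against 481 in the main ORF of Akt2. The 3 of Pik3cg shared 1 stop. The shares of these lists are given side by side with no test, and their lists hold 6 to 19 listed genes each.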

How the data were processed

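Ribosome footprints of 37 libraries were summarised by the authors in 1 list of ORFs in BED layout, with mm9 positions, and no other values were used here. The submitters' processing notes name Bowtie2, TopHat and mm9 without versions. In the sources used here, how ORFs were called, and on which transcript models, is not given. The deposited score is the authors' own, a whole number from 500 up, and no per-ORF count or depth was used, so an ORF's presence and score can move with expression and depth.

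Lengths in names matched the coding bases less the stop codon for all 22367 ORFs. Positions are given counted from 1. Families were formed from the names, a trailing number dropped, and split by chromosome and strand. Markers and genes of the pathway lists were matched by exact symbol, so a gene listed under another name was counted as not listed. The main ORF is the longest (ties by score, then name), and other ORFs were classed by frame and position against it, with Python 3.11.15 and numpy 2.4.6, after a check on simulated families. All simulated ORFs of a family lay on the same transcript, so splice variants and isoforms were not part of that check. Distances are along the listed transcript. Intervals are exact Clopper-Pearson (scipy 1.17.1). The members, lists and classes were chosen with earlier results of these data known, so no test was run. All 9 members are named, and from each pathway list up to 4 genes with the most upstream ORFs, with those named in the text besides chosen as partners or after their values were seen. Families with exactly 4 upstream ORFs ending before the main start, as Map3k3 has, numbered 63. RefSeq windows (GRCm38.p6) gave bases and no positions on the list.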

Additional observations from a re-analysis of the deposited data

How the results depend on the processing

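With a minimum score of 700 or of 900, 1 MAP3 kinase had an upstream ORF, Map3k3, among 8 and 4 members left, and 0 had another in-frame start. At 700 the 34-codon ORF of Map3k11 (841) passes, but its main ORF (667) does not, so that the former becomes the main ORF. Over all families left, upstream ORFs were then listed for 14.6% and 5.77%, and in-frame starts for 6.52% and 0.429%. With the highest-scoring ORF as main ORF, 1 had an upstream ORF, Map3k3, since the 34-codon ORF of Map3k11 scores above its main ORF, against 16.5% of all families. Counting splice variants as well, 4 had another start or splice form with the main stop, against 38.0%. The 19 ORFs fell to 7 with a score of 900 or more and to 12 with 1 ORF per stop codon, by the construction of these settings. With 1 ORF per stop codon, 0 had another in-frame start, by construction. The count of genes with an upstream ORF stayed at 2 of 9 in the other settings. These were 1 ORF per stop codon (against 20.2% of all families) and a minimum of 10 or 30 codons (against 15.7% and 8.79%). The others were upstream ORFs that stop short of the main start (against 16.4%) and those on a transcript that holds it (against 19.3%). The count with another in-frame start was 2 of 9 with a minimum of 10 or 30 codons (against 22.8% and 22.4% of all families). It was also 2 of 9 with the highest-scoring ORF as main ORF (against 21.6%). The alternative with the ORF of RefSeq protein length as main ORF was not run, as no protein table was used here. No paired analysis was possible because the list has no value per library, and no library could be left out for the same reason. The unknown depth limits what an unlisted ORF means: it was not listed, which does not show that it is not translated.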

Other observations

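Besides the 9 genes, the list holds 3 families named Map3k and a number. Map3k6 (ASK2), the relative of Map3k5, had a main ORF of 1381 codons with a score of 727, which began 1 base into its listed transcript, and a further in-frame start that gave 1192 codons with a score of 556. Map3k12 (DLK), a kinase known from neurons, had a 452-codon main ORF that scored 617. Downstream of it, a 40-codon ORF scored 929 and a 30-codon ORF scored 637. Map3k15, another relative of Map3k5, had 1 ORF of 907 codons with a score of 668. All 3 main scores lay below 800, the lower quartile of all main ORFs. These genes were described after their values were seen.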
